A study of Mus musculus with 5 samples.

Results

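The epidermal alarmins and lymphocyte survival cytokines examined here are 10 genes: *Tslp*, *Il33*, *Il25*, *Il18*, *Il1a*, *Il1b*, *Il1rn*, *Il34*, *Il15* and *Il7*. They were taken by gene symbol from a table of 47729 genes, in which each symbol matched 1 row. Their transcripts were counted in RNA of sorted dermal ILC2s (dILC2s, group 2 innate lymphoid cells of the skin), from 3 pools of C57BL/6 wild-type mice (WT pools 5, 6 and 13) and 2 pools of Rag1-/- mice on the same background (pools 2 and 7). The mice were young adult females. For the sequenced cells the study's methods name no allele or treatment other than the loss of *Rag1*, and no stimulation after sorting. Rag1-/- mice lack mature T and B cells in every tissue, so that the cells of these pools lack *Rag1* and also come from a host without those lymphocytes. The labels give 30 WT and 16 Rag1-/- mice over all pools, and the study's methods give a different number of Rag1-/- mice. Each pool mixes several animals, so that the spread between pools does not show the spread between mice. The labels name the cells of the Rag1-/- pools type 3 innate lymphoid cells, whereas the series title and the study's methods name all cells dILC2s.

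Most of these cytokines are made by cells around the ILC2 rather than by the ILC2 itself. IL-33, TSLP and IL-25 are released by barrier epithelium and stroma and act on receptors of ILC2s, which answer with IL-5 and IL-13. IL-1α, IL-1β and IL-18 belong to the IL-1 family as IL-33 does, IL-1Ra (*Il1rn*) occupies the IL-1 receptor without signalling, and keratinocytes store IL-1α and IL-1Ra. IL-34 is a ligand of the CSF-1 receptor that keratinocytes supply to Langerhans cells. IL-7 and IL-15, from stromal cells, keratinocytes and myeloid cells, keep lymphocytes alive through receptors that share the common gamma chain.

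The libraries held between 32939428 and 39477243 counts on genes, except Rag1-/- pool 2, which held 8050562. Counts of at most 3 were taken as the lowest level that the depth can show, which is 0.373 CPM (counts per 1000000 counts of the library) in pool 2 and from 0.0760 to 0.0911 CPM in the others. Counting intervals and this floor cover counting error only. Reads on the targeted gene, *Rag1*, were not fewer in the libraries labelled Rag1-/-. They numbered 4 in WT pool 5, 0 in pool 6 and 5 in pool 13. The library labelled Rag1-/- pool 2 had 5 such reads and that labelled pool 7 had 48. At 0.621 and 1.23 CPM these Rag1-/- libraries lay above the WT pools (at most 0.152 CPM). The gene did not pass the test (log2 fold change 3.53, standard error 1.03, adjusted p = 0.0866, edgeR). The counts do not show which part of the gene the reads cover, genotypes are given as labelled throughout, and each direction below rests on these labels. All 12 genes of an ILC2 list were detected, with a summed level of 1223 to 2236 CPM in WT and 3533 and 5528 CPM in Rag1-/- pools. A list of 7 ILC3 genes summed to between 45.6 and 59.6 CPM in WT and to 184 and 292 CPM in Rag1-/- pools. Genes of other cells were present as well: a list of 20 keratinocyte genes, led by *Krt10*, summed to between 29192 and 42970 CPM in WT and to 6960 and 18118 CPM in Rag1-/- pools 2 and 7. A list of 16 pan-leukocyte genes, led by *Ptprc*, summed to between 871 and 2137 CPM in WT and to 6863 and 5980 CPM in Rag1-/- pools 2 and 7. Neither list overlapped between genotypes. In bulk RNA, fewer cells of a type and less RNA per cell cannot be told apart.

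*Il33* was lower in dILC2 libraries labelled Rag1-/-, and it was the only one of the 10 genes past the thresholds (adjusted p under 0.05 and a change of more than 1 on the log2 scale in either direction). Values of p are those of the quasi-likelihood test in edgeR, adjusted by Benjamini-Hochberg over 19011 genes. Of all genes tested, 2.16% were lower and 3.57% higher by this rule. 9 of the 10 cytokines had enough counts to be tested, and *Il25* did not. The log2 fold change was negative in 7 of these 9 and positive in 2 (*Il1b* and *Il15*), and its median was -0.88 against 0.02 over all genes tested. In 5 of the 9 (*Il33*, *Il1a*, *Il1rn*, *Il34* and *Il7*) both Rag1-/- pools lay below every WT pool, and in none did both lie above. The share of tested genes with such a separation was 24% for Rag1-/- below WT and 21.9% for Rag1-/- above WT. DESeq2, with the same thresholds, called 3 of the 9 as lower (*Il33*, *Il34* and *Il7*), where it called 7.59% of all the genes it tested as lower. Without WT pool 5, 6 or 13 or without Rag1-/- pool 2, edgeR called no gene of the 18386 to 20168 tested, *Il33* included, although between 3521 and 5200 genes had an unadjusted p under 0.05. Without Rag1-/- pool 7, which leaves only pool 2 of that genotype, the log2 fold changes of the 9 ran from -2.20 (*Il34*) to 0.18 (*Il15*).

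**Figure D1:**
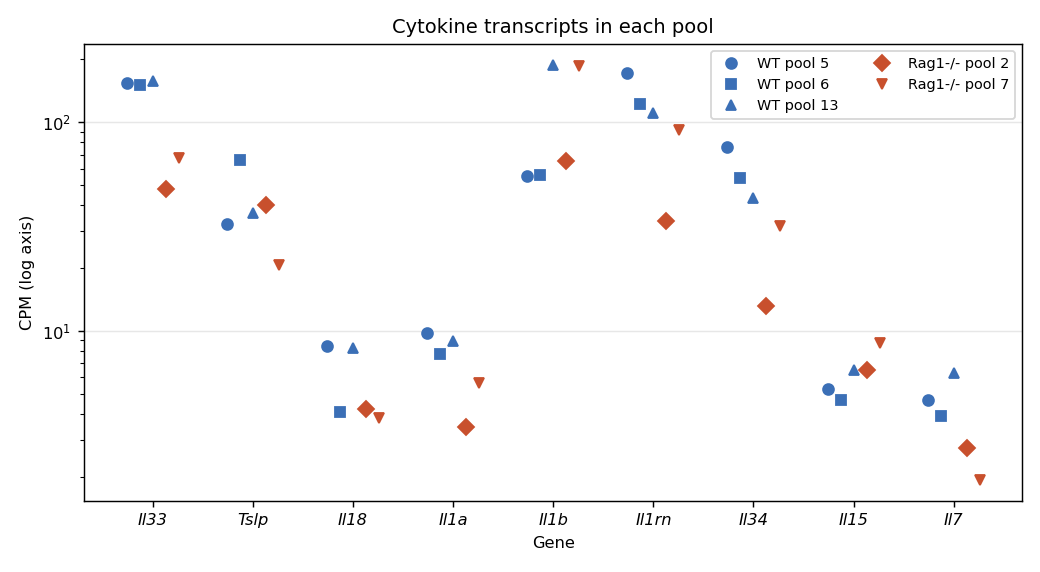
CPM on a log axis for the 9 tested cytokines (x axis), with 1 point for each pool, blue for WT and orange for Rag1-/-. The WT points of *Il33* lie within 151 to 157 CPM and the Rag1-/- points at 48.1 and 67.5 CPM, while *Il1b* has 1 pool of each genotype near 190 CPM.

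The promoters of the called gene and of the neighbouring genes *Il1a* and *Il1b*, neither of which passed, are printed here, so that the genes behind the values can be seen. RefSeq sequences of 250 bases before to 50 bases after a start site (GRCm38.p6) were used for 5 of the 10 genes, with 8 start sites. *Tslp* was left out by its chromosome. Of these windows, 4 are shown on the strand of the gene. Capitals mark matches to 5 motifs, searched on both strands. The TATA box was searched as TATAAA. The AP-1 motif, bound by Fos and Jun proteins, was searched as TGANTCA. The STAT motif was searched as TTCNNNGAA. The motif of GATA factors was searched as GATAAG, and NF-kB by its consensus. *Il33* has 2 annotated starts, at chr19:29924863-29925162 and chr19:29945540-29945839, both on the plus strand. *Il1a* (chr2:129309923-129310222) and *Il1b* (chr2:129371090-129371389) lie on the minus strand.
Il33, first start: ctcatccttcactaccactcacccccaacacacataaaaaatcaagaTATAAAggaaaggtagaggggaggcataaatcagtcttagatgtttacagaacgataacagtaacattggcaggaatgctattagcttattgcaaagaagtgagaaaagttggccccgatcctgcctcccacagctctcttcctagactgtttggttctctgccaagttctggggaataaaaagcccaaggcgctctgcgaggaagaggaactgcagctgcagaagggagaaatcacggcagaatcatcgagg
Il33, second start: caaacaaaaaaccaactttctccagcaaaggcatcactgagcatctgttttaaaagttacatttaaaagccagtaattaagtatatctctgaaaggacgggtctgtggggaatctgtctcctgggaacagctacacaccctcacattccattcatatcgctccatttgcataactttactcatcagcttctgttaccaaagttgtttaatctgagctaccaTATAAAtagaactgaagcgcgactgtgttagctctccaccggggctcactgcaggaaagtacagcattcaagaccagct
Il1a: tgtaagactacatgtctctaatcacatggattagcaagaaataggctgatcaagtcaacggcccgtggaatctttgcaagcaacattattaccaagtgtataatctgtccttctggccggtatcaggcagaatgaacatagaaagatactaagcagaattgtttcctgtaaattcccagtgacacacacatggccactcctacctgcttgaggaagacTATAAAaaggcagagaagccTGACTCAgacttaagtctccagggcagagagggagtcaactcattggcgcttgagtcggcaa
Il1b: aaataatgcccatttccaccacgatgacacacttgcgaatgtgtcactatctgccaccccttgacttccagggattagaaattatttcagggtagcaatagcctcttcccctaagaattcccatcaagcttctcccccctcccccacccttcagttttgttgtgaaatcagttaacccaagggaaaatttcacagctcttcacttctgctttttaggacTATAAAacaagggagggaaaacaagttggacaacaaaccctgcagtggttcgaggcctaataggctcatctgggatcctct

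A TATA box began 32 bases before the start of *Il1a*, 31 before that of *Il1b* and 29 before the second start of *Il33*, and at the first start of *Il33* the letters began 203 bases before. Of 32851 RefSeq promoter windows of the same length, 13.6% hold these letters. In the 4 windows the AP-1 letters were found once, in *Il1a*, 12 bases before its start. Among the windows not printed, the first start of *Il1rn* held them 141 bases before, and 7.81% of all windows hold them. The STAT, GATA and NF-kB letters were in none of these 4 windows (8.30%, 7.44% and 8.46% of all windows). A match is a description of the letters, and the counts are per gene, so that the use of each start of *Il33* was not measured.

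*Il33* (ENSMUSG00000024810, chromosome 19 of GRCm38, 29925114 to 29960718) encodes the nuclear alarmin that damaged epithelium and stroma release. It had 155, 151 and 157 CPM in WT pools 5, 6 and 13 and 48.1 and 67.5 CPM in Rag1-/- pools 2 and 7. The WT pools were nearly alike, and both Rag1-/- pools lay far below them. The ratio of the highest to the lowest WT pool was 1.04, and of 12155 genes with at least 100 counts in every WT pool only 2.79% had a smaller ratio. *Il33* fell by 1.38 on the log2 scale in the libraries labelled Rag1-/- (standard error 0.23, 95% interval -1.91 to -0.84, adjusted p = 0.0306, edgeR), which is a level 2.60 times as high in WT. With any 1 pool left out, its log2 fold change stayed between -1.74 and -1.12. Its adjusted p was 0.0659 without Rag1-/- pool 2, between 0.0694 and 0.112 without 1 WT pool, and 0.0124 without Rag1-/- pool 7.

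*Tslp* (ENSMUSG00000024379, chromosome 18, 32815383 to 32819799), the cytokine of keratinocytes that primes dendritic cells and ILC2s, did not pass. It had 32.4, 65.6 and 36.6 CPM in WT pools 5, 6 and 13 and 40.1 and 20.7 CPM in Rag1-/- pools 2 and 7. WT pool 6 stood above the other pools and the genotypes overlapped. The log2 fold change was -0.55 ± 0.40 (SE, 95% interval -1.49 to 0.39), with an adjusted p of 0.431 in edgeR, and the WT pools spanned a ratio of 2.02, wider than in 93.5% of the 12155 genes. *Il25* (ENSMUSG00000040770, chromosome 14, 54932695 to 54935837), the alarmin of tuft cells and other epithelia, was hit by 1 read in WT pool 5, by 0 in pools 6 and 13, by 0 in Rag1-/- pool 2 and by 2 in pool 7. It was thus not detectable beyond the floor in any pool, and no fold change is given.

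Within the IL-1 branch, the agonist *Il1a* and the antagonist *Il1rn* lay lower in both Rag1-/- pools without passing the thresholds, and *Il1b* did not separate the genotypes. *Il1a* (ENSMUSG00000027399, chromosome 2, 129299610 to 129309972), the intracellular alarmin of keratinocytes, had 9.72, 7.78 and 8.93 CPM in WT pools 5, 6 and 13 and 3.48 and 5.65 CPM in Rag1-/- pools 2 and 7. The value of pool 2 rests on 28 counts, with an exact 95% Poisson interval of 2.31 to 5.03 CPM. It differed by -0.88 on the log2 scale (standard error 0.33, adjusted p = 0.151, edgeR). *Il1rn* (ENSMUSG00000026981, chromosome 2, 24336853 to 24351494) had 172, 123 and 111 CPM in WT and 33.5 and 91.6 CPM in Rag1-/- pools 2 and 7. Most of its difference came from Rag1-/- pool 2, since pool 7 lay just under the lowest WT pool. The log2 fold change of *Il1rn* was -1.05 ± 0.44 (SE), with an adjusted p of 0.181 in edgeR. It was -0.49 without Rag1-/- pool 2 and -2.07 without pool 7, where it passed (adjusted p = 0.0198).

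*Il1b* (ENSMUSG00000027398, chromosome 2, 129364570 to 129371139), the inflammasome-processed cytokine of myeloid cells, is separated from *Il1a* by 54597 bases and had another pattern over the pools. It had 55.5, 56.1 and 189 CPM in WT pools 5, 6 and 13 and 65.0 and 187 CPM in Rag1-/- pools 2 and 7. A high pool stood in each genotype, WT pool 13 and Rag1-/- pool 7, and the other 3 pools were alike. The WT pools spanned a ratio of 3.40, wider than in 99% of the 12155 genes. For *Il1b* the log2 fold change was 0.39 (standard error 0.64, 95% interval -1.13 to 1.91, adjusted p = 0.758, edgeR). Without WT pool 13 it was 1.22 (adjusted p = 0.247), and without Rag1-/- pool 7 it was -0.68 (adjusted p = 0.586), so that 1 pool set its direction.

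The same pools, WT 13 and Rag1-/- 7, were the highest of their genotype for *Il1r2*, *Nlrp3* and the sum of a Langerhans list. These were chosen for this comparison after their values were seen. This order of pools was found in 6 of 30 tested genes of inhibition, processing and release (20.0%) and in 19.5% of all genes tested. It was thus about as frequent in these lists as elsewhere. Among the 9 tested cytokines 3 had it (33.3%), *Il1b*, *Il15* and, by a narrow margin among its WT pools, *Il33*. *Casp1* had another order, with 6.55, 12.2 and 11.4 CPM in WT pools 5, 6 and 13 and 37.6 and 14.3 CPM in Rag1-/- pools 2 and 7. *Il1r2*, the decoy receptor of IL-1, had 146, 126 and 361 CPM in WT pools 5, 6 and 13 and 215 and 292 CPM in Rag1-/- pools 2 and 7. *Nlrp3*, the inflammasome sensor, had 19.0, 19.6 and 55.9 CPM in WT and 25.6 and 37.6 CPM in Rag1-/- pools. The 5 genes of the Langerhans list, led by *Cd74*, summed to 1448, 1162 and 3449 CPM in WT and to 1974 and 3076 CPM in Rag1-/- pools 2 and 7. Besides *Cd74* it holds *Cd207*, *H2-Aa*, *H2-Ab1* and *Itgax*, which are not all particular to Langerhans cells. The 10 myeloid genes, led by *Lyz2*, summed to 357, 368 and 473 CPM in WT and to 182 and 485 CPM in Rag1-/- pools. A list of 6 neutrophil genes summed to at most 18.1 CPM in any pool, with *Ly6g* at 0 in all. The part of these cells in the *Il1b* values was not tested.

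**Figure D2:**
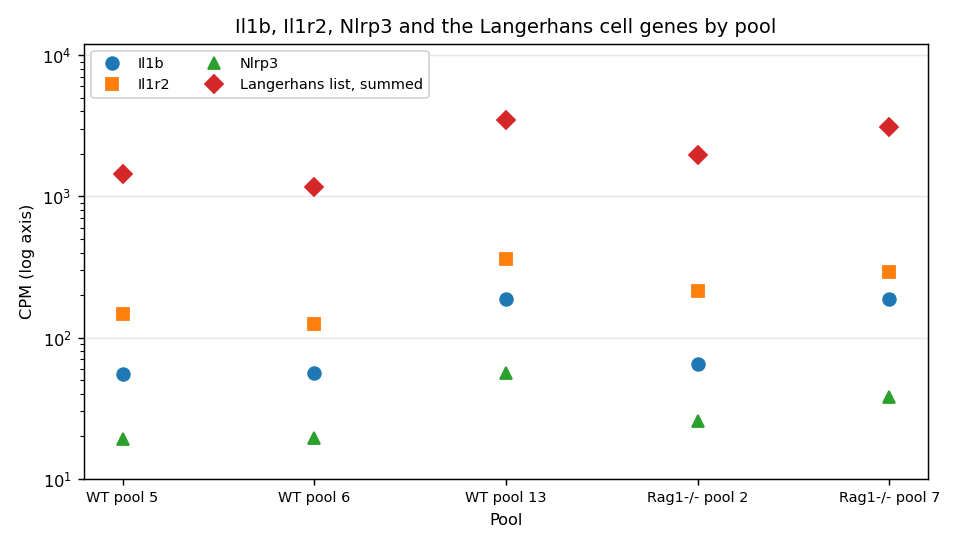
CPM on a log axis of *Il1b*, *Il1r2*, *Nlrp3* and the sum of the 5 genes of the Langerhans list in each pool (x axis). All 4 have their highest WT value in pool 13 and their higher Rag1-/- value in pool 7.

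*Il18* (ENSMUSG00000039217, chromosome 9, 50575273 to 50581837), a further cytokine that caspase-1 activates, had 8.43, 4.08 and 8.29 CPM in WT pools 5, 6 and 13 and 4.22 and 3.80 CPM in Rag1-/- pools 2 and 7. WT pool 6 lay with the Rag1-/- pools, so that the genotypes overlapped. The log2 fold change was -0.76 ± 0.40 (SE), with an adjusted p of 0.283 in edgeR. The deposited gene model starts at 50575273 and GENCODE M21, on the same build, at 50554827.

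*Il34* (ENSMUSG00000031750, chromosome 8, 110741829 to 110805924) showed the largest log2 fold change after *Il33* among the 9 genes. It had 76.2, 54.0 and 43.2 CPM in WT pools 5, 6 and 13 and 13.2 and 31.8 CPM in Rag1-/- pools 2 and 7. The pools did not overlap, but the WT pools spanned a ratio of 1.76. The log2 fold change was -1.30 ± 0.43 (SE, 95% interval -2.30 to -0.29), with an adjusted p of 0.113 in edgeR. It was past the thresholds with DESeq2 (adjusted p = 0.0188) and, with edgeR, without Rag1-/- pool 7 (-2.20, adjusted p = 0.0262). Over the pools, the highest and the lowest values of *Il34*, *Il1rn* and the keratinocyte genes fell in the same libraries, WT pool 5 and Rag1-/- pool 2. *Il1a* shared this order. *Il33* was also lowest in Rag1-/- pool 2. Its WT values, 155, 151 and 157 CPM in pools 5, 6 and 13, were nearly alike, with pool 13 highest. The share of all genes tested with the same highest and lowest pools was not computed.

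The survival cytokines differed in sign. *Il7* (ENSMUSG00000040329, chromosome 3, 7569994 to 7613760), required for the upkeep of ILCs and T cells, had 4.67, 3.90 and 6.25 CPM in WT pools 5, 6 and 13 and 2.73 and 1.93 CPM in Rag1-/- pools 2 and 7. Both Rag1-/- values lay under the lowest WT value, and the value of pool 2 rests on 22 counts (exact 95% Poisson interval 1.71 to 4.14 CPM, which reaches the WT range). The log2 fold change was -1.08 ± 0.39 (SE), with an adjusted p of 0.136 in edgeR, and DESeq2 placed it past the thresholds (adjusted p = 0.0422). *Il15* (ENSMUSG00000031712, chromosome 8, 82331637 to 82403222), which supports NK cells and memory T cells, had 5.28, 4.66 and 6.50 CPM in WT and 6.46 and 8.71 CPM in Rag1-/- pools. Rag1-/- pool 2 lay just under WT pool 13, and the log2 fold change was 0.52 (standard error 0.31, 95% interval -0.21 to 1.25, adjusted p = 0.342, edgeR).

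Ratios of 2 genes within a library do not depend on how libraries are scaled, and 4 were compared. The count of *Il7* per count of *Il15* was 0.883, 0.837 and 0.963 in WT pools 5, 6 and 13 and 0.423 and 0.221 in Rag1-/- pools 2 and 7, a difference of -1.54 on the log2 scale without overlap. Its two-sided exact permutation p was 0.1, the smallest that 3 pools against 2 allow, and 0.4 after adjustment over the 4 ratios. *Il1rn* per count of *Il1a* plus *Il1b* was 2.63, 1.92 and 0.561 in WT and 0.490 and 0.475 in Rag1-/- pools. WT pool 13 lay close to the Rag1-/- pools in this ratio of antagonist to agonists (difference -1.55, exact p = 0.2, adjusted 0.4). *Il33* per count of *Tslp* was 4.78, 2.30 and 4.30 in WT and 1.20 and 3.26 in Rag1-/- pools, which overlapped (difference -0.87, exact p = 0.3, adjusted 0.4). The difference was -0.15 without Rag1-/- pool 2 and -1.59 without pool 7. *Il18bp*, the soluble inhibitor of IL-18, per count of *Il18* was 0.394, 0.913 and 0.348 in WT and 0.824 and 0.905 in Rag1-/- pools, with overlap (difference 0.79, exact p = 0.4, adjusted 0.4), and the difference was 1.22 without WT pool 6.

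The summed keratinocyte genes moved with the genotype, so each cytokine was also set against them and against the pan-leukocyte genes. Per 1000 CPM of keratinocyte genes, *Il33* had 3.61, 4.59 and 5.39 CPM in WT pools 5, 6 and 13 and 6.91 and 3.73 CPM in Rag1-/- pools 2 and 7. On this scale the genotypes overlapped, with a log2 difference of 0.18. *Il34* had 1.77, 1.64 and 1.48 CPM in WT and 1.89 and 1.76 CPM in Rag1-/- pools per 1000 CPM of keratinocyte genes (log2 difference 0.16). Its ratio of the highest to the lowest pool was the smallest of the 9. *Il1rn* had 4.0, 3.74 and 3.79 CPM in WT and 4.82 and 5.05 CPM in Rag1-/- pools, so that both Rag1-/- pools were above the WT pools (0.36). The same holds for *Il1a* (0.64), *Il1b* (2.02) and *Il15* (2.09), whereas *Tslp*, *Il18* and *Il7* overlapped. When libraries were scaled on the keratinocyte genes in edgeR, all 7 negative log2 fold changes became positive, and *Il1b* and *Il15* passed as higher. Of all 19011 genes tested, 10327 passed as higher with this scaling, and the median of all genes moved to 1.72. Neither the keratinocyte nor the pan-leukocyte sum overlapped between genotypes, so that a gene with equal CPM in every pool would separate on either scale. Relative to the pan-leukocyte genes, 8 of the 9 were lower in both Rag1-/- pools than in any WT pool, and *Il1b* overlapped. The share of all genes without overlap was not computed relative to any marker list. *Il33* had 178, 70.6 and 74.1 CPM per 1000 CPM of these genes in WT and 7.0 and 11.3 CPM in Rag1-/- pools, a log2 difference of -3.46. With this scaling 7 of the 9 passed as lower in edgeR, as did 12598 of all 19011 genes tested. The median of all genes moved to -2.15. Fibroblast and myeloid genes, whose sums overlapped between the genotypes, gave a further pair of references. Relative to them *Il33* was lower in both Rag1-/- pools than in any WT pool, with log2 differences of -1.13 (fibroblast) and -1.02 (myeloid). Of the other 8 cytokines, *Il18* and *Il7* were lower without overlap relative to fibroblast genes, *Il1rn* and *Il34* relative to myeloid genes, and *Il15* was higher relative to both. Whether keratinocyte RNA carries part of the *Il33* difference was not tested.

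**Figure D3:**
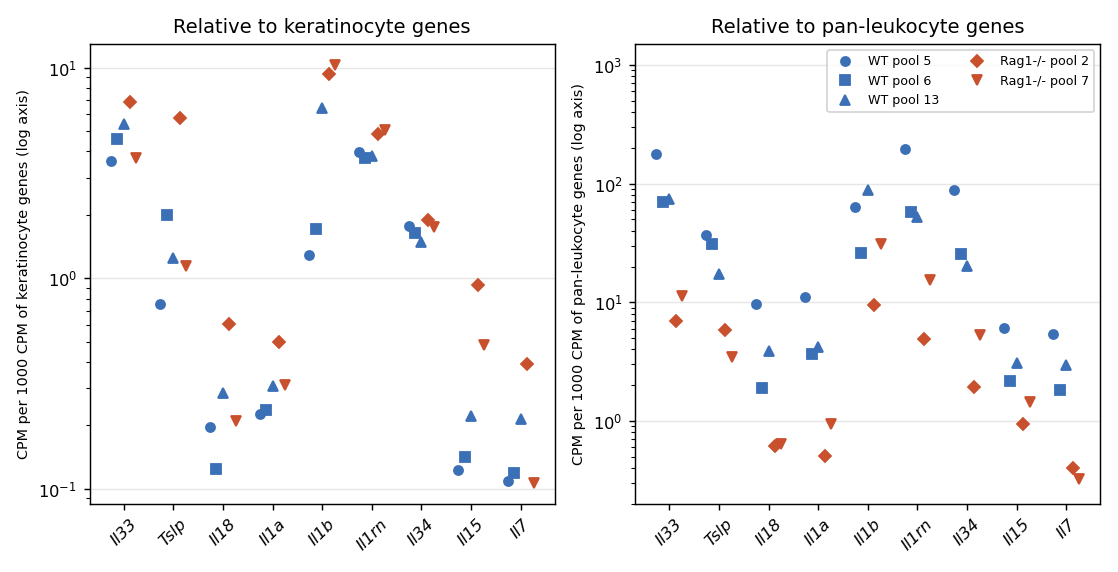
CPM of each cytokine per 1000 CPM of 20 keratinocyte genes (left) and of 16 pan-leukocyte genes (right), on log axes, with 1 point for each pool, blue for WT and orange for Rag1-/-. *Il33* overlaps between genotypes on the left (3.61 to 6.91) and does not on the right.

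The receptors of these cytokines were read from the same fit, in which 3.57% of all genes tested passed as higher and 2.16% as lower. Of the 13 receptor chains, all tested, 3 were higher and none lower past the thresholds where the label was Rag1-/-, and their median was 1.37 on the log2 scale. Beside them, 10 of the 16 pan-leukocyte genes were higher past the thresholds, with a median of 1.95, and the part of leukocyte content in the receptor values was not tested. *Crlf2*, the TSLP receptor chain, rose by 1.37 (standard error 0.19, adjusted p = 0.0306, edgeR), from 22.1 ± 1.68 CPM (SD, n = 3) in the WT pools to 55.6 ± 6.29 CPM (SD, n = 2). *Il2rb* (2.23, adjusted p = 0.0353) and *Il2rg* (2.21, adjusted p = 0.0357, edgeR), the chains that carry the IL-15 signal, rose as well. *Il2rg* is the common gamma chain and also serves IL-7. The third IL-15 chain, *Il15ra*, which presents the cytokine and is expressed by the cells that make it, had a log2 fold change of -0.48 and did not pass.

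No further receptor chain passed. *Il7r*, a chain of the IL-7 and TSLP receptors, differed by 1.75 on the log2 scale (standard error 0.48), with an adjusted p = 0.0746 in edgeR. The study, which used DESeq2, reports *Il7r* RNA as prominently higher in Rag1-/- dILC2s. By flow cytometry it also found more IL-7Rα protein on these cells. The IL-18 receptor chains *Il18r1* and *Il18rap* had 1.88 and 2.05 (adjusted p = 0.0749 and 0.0660, edgeR). In these 3 genes both Rag1-/- pools lay above every WT pool, as in 21.9% of all genes tested. *Il1rl1*, the IL-33 receptor, had 8.17, 52.1 and 31.8 CPM in WT pools 5, 6 and 13 and 161 and 40.4 CPM in Rag1-/- pools 2 and 7, with overlap between the genotypes (log2 fold change 1.71, standard error 0.77, adjusted p = 0.211, edgeR). Its partner *Il1rap* had -0.72 (adjusted p = 0.0902) and the IL-1 receptor *Il1r1* -0.31 (adjusted p = 0.403, edgeR). *Il17rb* and *Il17ra*, which bind IL-25, had 1.30 and 0.48 (adjusted p = 0.103 and 0.174, edgeR). *Csf1r*, through which IL-34 acts, had -0.05 (adjusted p = 0.951, edgeR).

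**Figure D4:**
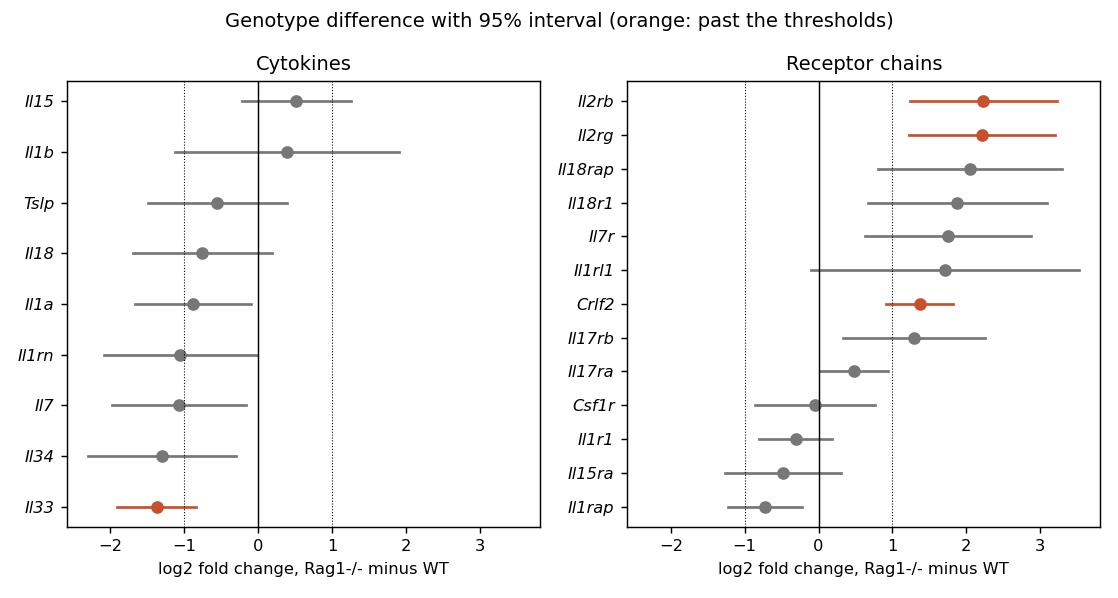
Log2 fold change (Rag1-/- minus WT, x axis) with its 95% interval for the 9 tested cytokines (left) and 13 receptor chains (right). Orange marks genes past the thresholds, which are *Il33* on the left and *Crlf2*, *Il2rg* and *Il2rb* on the right, and dotted lines mark 1 and -1.

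Genes that restrain, process or transmit these signals were counted from lists, beside shares of 3.57% higher and 2.16% lower over all genes tested. Of 9 inhibitors, *Il1rn* included, 3 were higher past the thresholds: *Socs1* (1.74) and *Cish* (1.25), feedback inhibitors of JAK-STAT signalling, and *Sigirr* (1.33), an inhibitory receptor of the IL-1 family. None was lower. Of 21 tested genes of processing and release, *Gsdmd* (1.27), the pore-forming protein through which IL-1β and IL-18 leave a cell, was higher, and *Nlrp10* (-1.84), a protein of differentiated keratinocytes, was lower. *Casp1*, which cleaves pro-IL-1β and pro-IL-18, had 1.38 and did not pass (adjusted p = 0.106, edgeR). Of 13 signalling genes, *Jak3* (2.03), which pairs with the common gamma chain, and *Irak2* (1.05), a kinase of the IL-1 receptor pathway, were higher. The 10 of 16 pan-leukocyte genes that were higher, with their median of 1.95, stand beside these calls too, and their part in them was not tested.

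In the IL-36 branch of the IL-1 family, whose ligands are epidermal, all 6 genes had a negative log2 fold change with a median of -1.40. The 20 keratinocyte genes had a median of -1.56, with 6 called lower and 18 lower without overlap, and their part in the IL-36 values was not tested. *Il1rl2*, the IL-36 receptor, fell by 1.55 (standard error 0.23, adjusted p = 0.0306, edgeR), and the other 5 did not pass. *Il1f5* had 76.5, 43.4 and 49.8 CPM in WT pools 5, 6 and 13 and 1.12 and 33.5 CPM in Rag1-/- pools 2 and 7, and its value in pool 2 rests on 9 counts. Of 14 other growth and survival factors, 4 were higher and 2 lower past the thresholds, beside 3.57% and 2.16% of all genes tested. *Csf2* (3.22), *Tnfsf4* (2.56), *Flt3l* (1.68) and *Tgfb1* (1.94), which lymphocytes themselves can express, were the higher ones. *Kitl* (-1.11, adjusted p = 0.0373, edgeR), the mast cell and melanocyte growth factor, and *Tgfa* (-1.42), a ligand of the EGF receptor on keratinocytes, were the lower ones. Pan-leukocyte genes had a median of 1.95 and keratinocyte genes of -1.56, and their part in these calls was not tested.

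Levels of different genes were compared per kilobase of the transcript length given with the deposited counts. In WT the order of the means was *Il1b* (73.8 CPM per kilobase), *Il33* (60.9), *Il1rn* (54.6), *Tslp* (39.6) and *Il34* (33.8), and each of these overlapped its neighbour over the pools. The first place of *Il1b* rests on WT pool 13, since its mean over pools 5 and 6 was 41.1 CPM per kilobase, and it ranked below *Il33* and *Il1rn* in both. Then came *Il18* (9.87), *Il1a* (4.46), *Il15* (2.87) and *Il7* (1.02), and each lay in every pool's value below the lowest value of the gene before it. In the libraries labelled Rag1-/- *Il1b* (92.9 CPM per kilobase) was followed by *Tslp* (26.8), *Il1rn* (25.3) and *Il33* (22.8), which overlapped, and by *Il34* (13.2). *Il15* (3.98) there stood above *Il1a* (2.31) without overlap, the reverse of WT. In each of the 5 pools, *Il7* was the lowest of the 9 and *Il25* was below it. The exonic lengths of GENCODE M21 gave the same 5 leading genes in every pool, and *Il1rn*, which is 5535 bases long there and 2474 in the deposited table, fell below *Il34* in 4 of the 5 pools.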

How the data were processed

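Sorted dILC2s of WT (3 pools) and Rag1-/- mice (2 pools) were sequenced by the authors, who aligned the reads to GRCm38 with STAR and counted them per gene with featureCounts. They deposited raw counts with a transcript length per gene, and a normalized signal that was used in 1 alternative only. The strand setting is not given in the sources used here, and exons of *Il1a*, *Il1b*, *Il34* and *Il7* share bases (222 for *Il1a*, 25 for *Il1b*, 22 and 75 for *Il34*, 105 for *Il7*) with genes on the opposite strand in GENCODE M21. After filterByExpr and TMM scaling, genotypes were tested on all 19011 remaining genes by edgeR (4.0.16, under R 4.3.3) with its quasi-likelihood F-test and Benjamini-Hochberg adjustment, at the study's thresholds. Each standard error is the absolute log2 fold change divided by the root of F. The test was run on simulated data first. Alternatives were DESeq2 1.42.0, limma 3.58.1 on the deposited signal (pseudocount 1), other scalings and filters, thinning, a glmTreat test with a minimum change of 1 (log2), and each pool left out. P-values measure the spread between pools. The groups share no replicate numbers. The genes and lists were chosen with earlier results of these data known. All 10 cytokines and the receptor chains are named, and from other lists at most 4 genes past the thresholds with the smallest adjusted p, except *Casp1*, *Il1f5*, *Il1r2*, *Nlrp3*, *Kitl* and *Tgfa*, chosen after their values were seen.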

Additional observations from a re-analysis of the deposited data

How the results depend on the processing

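Of 135 combinations of a cytokine and an alternative, 105 kept direction and side of the thresholds. The number of genes called, 1090, was 2454 with DESeq2, 2645 without the filter on low counts, 12614 with scaling on pan-leukocyte genes, 10383 with scaling on keratinocyte genes and 0 in edgeR's test against a log2 fold change of 1 (1635 at an unadjusted p under 0.05), and it ranged from 0 to 2409 with 1 pool left out. In the same order the cytokines called, 1 of 9, were 3, 3, 7, 2 and 0, with a range of 0 to 4, and the genes called in all other lists, 17 of 76, were 26, 29, 48, 48 and 0, with a range of 0 to 33. Scaling on keratinocyte genes turned the log2 fold changes of *Tslp* (1.36), *Il33* (0.23), *Il18* (0.97), *Il1a* (0.64), *Il1rn* (0.36), *Il34* (0.16) and *Il7* (0.68) positive, none of them called, and brought *Il1b* (1.64) and *Il15* (2.10) past the thresholds. Scaling on pan-leukocyte genes called *Tslp* (-2.61), *Il18* (-3.04), *Il1a* (-3.11), *Il1rn* (-3.34), *Il34* (-3.61) and *Il7* (-3.23) in addition to *Il33*, and turned *Il1b* (-1.55) and *Il15* (-1.64) negative without a call. Both scalings move all genes by construction. *Il34* (-1.34) and *Il7* (-1.13) were called with DESeq2, and *Il34* (-1.34) and *Il1rn* (-1.10) without the filter, for which the cause was not tested. *Il33* lost its call in the test against a log2 fold change of 1 (-1.38, adjusted p = 0.436). With 1 pool left out, the values ranged from -1.74 to -1.12 for *Il33*, -1.40 to -0.57 for *Il1a*, -2.07 to -0.49 for *Il1rn*, -2.20 to -0.79 for *Il34* and -0.68 to 1.22 for *Il1b*. Where 1 Rag1-/- pool was left, it was assumed to vary like the WT pools. RLE scaling, library size alone, at least 10 counts in every library, limma on the deposited signal and thinning changed no call of a cytokine. The 4 ratios and the median level relative to pan-leukocyte genes kept their direction in every alternative run, though *Il33* to *Tslp* ranged from -1.59 to -0.15, whereas the median relative to keratinocyte genes, 0.34, was -0.02 without Rag1-/- pool 2 and 0.71 without pool 7. The depth of Rag1-/- pool 2 limits *Il1a*, *Il7*, *Il18* and *Il25* most.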
